A study of Mus musculus with 3 samples.

Results

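Nalf1 and Pcdh9 are 2 of the 56980 genes listed for single-cell RNA sequencing libraries of mouse bone marrow nucleated cells (BMNCs). Both were picked by name because earlier results from these same libraries had shown more of their RNA after irradiation than in the other libraries, so their levels over all cells are given here as a description and carry no test. The series holds 3 libraries, 1 for each group, each made from the pooled marrow of 3 wild-type male C57BL/6 mice taken on day 14 (the age of the mice was not given in the sources used here). Control mice were not irradiated. IR mice received 6.0 Gy of total body gamma-irradiation and the solvent, soybean oil with DMSO. IR+CBD mice received 6.0 Gy and cannabidiol (CBD), a plant cannabinoid, by intraperitoneal injection around the irradiation (the sample label names only the CBD treatment, and the irradiation comes from the design text). Before capture the marrow was sorted into a Lin- Kit+, a Lin- Kit- and a Lin+ fraction, mixed again at 5:4:1, so every share of cells below refers to that mix and not to whole marrow.

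Nalf1, also known as Fam155a, encodes a membrane protein that joins the sodium leak channel NALCN together with Unc79 and Unc80, a complex that sets the resting potential of neurons. Pcdh9 encodes a delta-protocadherin, a cell adhesion molecule best known from the developing brain. There the tails of some members of this family recruit the WAVE complex that drives actin branching, and whether Pcdh9 does so was not examined here. In marrow, Cd34 and Adgrl4 mark stem and early progenitor cells, Mpo encodes the myeloperoxidase of neutrophil and monocyte progenitors, and Igll1 encodes part of the surrogate light chain that pro-B and pre-B cells make while they rearrange their immunoglobulin genes with Rag1 and Dntt. Cells were placed in gates by their raw unique molecular identifier (UMI) counts, where each UMI stands for 1 captured RNA molecule: Mpo from 5 UMIs, Klf1 (erythroid cells) from 2, Cd79a (B lineage) from 2, Igll1 from 2, Retnlg (mature neutrophils) from 5, Siglech (plasmacytoid dendritic cells) from 3, and Cd34 from 1 with Adgrl4 from 1. Gates may overlap, and none uses the members. In each gate and library, each of the 5 markers listed for that cell type was higher inside the gate than outside it.

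Both members are long genes on the minus strand. Nalf1 (ENSMUSG00000079157) spans 565 kb of chromosome 8 and Pcdh9 (ENSMUSG00000055421) spans 877 kb of chromosome 14 in the GENCODE M21 annotation of GRCm38, in which the median protein-coding gene spans 17.3 kb and only 177 and 83 of 22028 are longer, respectively. The promoter of Pcdh9 is shown because its RNA is concentrated in 1 lineage below, and its sequence gives the letters that lie in front of that transcript. It is the RefSeq stretch of 250 bases before the start site in GRCm38.p6, chr14:93890680-93890929 on the minus strand, written 5′ to 3′, with a CCAAT box in capitals.
Pcdh9 promoter: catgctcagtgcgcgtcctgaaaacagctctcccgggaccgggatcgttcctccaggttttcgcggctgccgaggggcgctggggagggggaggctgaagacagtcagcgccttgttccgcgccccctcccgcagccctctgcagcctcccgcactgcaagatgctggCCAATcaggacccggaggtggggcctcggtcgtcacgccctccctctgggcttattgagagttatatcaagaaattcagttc
The stretch has a GC content of 63.6%, against a median of 52.4% over 32851 promoters of that length. On both strands it held 1 CCAAT, found in 33.8% of all promoters, and 2 copies of the ETS core GGAA, found in 93.4%. It held no E-box CANNTG, found in 66.2%.

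Cells with at least 200 genes and at most 5% mitochondrial UMIs were kept, which left 10674 Control, 10345 IR and 10273 IR+CBD cells with 194839224, 202361682 and 173466089 UMIs and a median of 12479.5, 14211 and 12502 UMIs per cell. Before this filter, between 35 and 51 barcodes were shared by any 2 libraries. Among the shared barcodes 1 kept Control and 1 kept IR cell had a Nalf1 UMI, and 2 kept IR cells had a Pcdh9 UMI. With 1 library per group, no difference between groups has a replicate check. Intervals are exact 95% intervals that cover counting error only, and mice within a pool cannot be told apart. Those of CPM and of CPM ratios treat each UMI as a separate count. They leave out the spread between cells, although few cells can hold most UMIs of a gene.

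Nalf1 was counted 100 times in the Control library, 1818 times after IR and 54 times after IR+CBD. Per 1000000 UMIs (CPM), its level was 0.513 (0.418 to 0.624) in Control, 8.98 (8.58 to 9.41) in IR and 0.311 (0.234 to 0.406) in IR+CBD. The IR level was 17.5 times that of Control (14.3 to 21.6), and the IR+CBD level was 0.0347 times that of IR (0.0259 to 0.0454), so that Control and IR+CBD both lay far below IR. IR+CBD was also below Control, at 0.607 times its level (0.427 to 0.853), although 36 of its 54 UMIs came from 1 cell. With the highest cell of each library left out, the level was 0.426 CPM in Control and 0.104 CPM in IR+CBD.

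The share of cells with a Nalf1 UMI differed less than its level did. Such positive cells numbered 39 among Control (0.365%), 170 among IR (1.64%) and 19 among IR+CBD cells (0.185%), a share 4.50 times as high in IR as in Control (3.16 to 6.55) and 0.113 times as high in IR+CBD as in IR. The positive cells themselves held more Nalf1 in IR: their median was 4 UMIs there and 1 UMI in each of the other libraries. In IR 45 cells held 1 UMI, 29 held 2 or 3, 40 held 4 to 9, 30 held 10 to 19 and 26 held 20 or more. In Control those classes held 27, 4, 6, 2 and 0 cells, and in IR+CBD 18, 0, 0, 0 and 1. The 96 IR cells with 4 or more UMIs carried 1705 of the 1818 UMIs (93.8%), and no single cell set the IR level, since its highest cell held 123 UMIs (6.77%). In IR+CBD by contrast 1 cell held 36 of the 54 UMIs (66.7%). That cell had 48655 UMIs in all, including 50 of Dntt, and was marked as a predicted doublet. With the highest cell of each library left out, the IR+CBD level was 0.0124 times that of IR.

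Pcdh9 was counted 144 times in Control, 1442 times in IR and 302 times in IR+CBD. Its level was 0.739 CPM (0.623 to 0.870) in Control, 7.13 CPM (6.76 to 7.50) in IR and 1.74 CPM (1.55 to 1.95) in IR+CBD. The IR level was 9.64 times that of Control (8.12 to 11.5), and the IR+CBD level was 0.244 times that of IR (0.215 to 0.277). Here IR+CBD lay between the other libraries, at 2.36 times the Control level (1.93 to 2.89), whereas for Nalf1 it lay below Control. Positive cells numbered 70 (0.656%), 303 (2.93%) and 98 (0.954%) in the order Control, IR and IR+CBD. The share in IR was 4.47 times that in Control (3.43 to 5.88), and the share in IR+CBD was 0.326 times that in IR. Cells with 4 or more UMIs numbered 11, 115 and 22 in that order, and the highest cell held 11, 52 and 26 UMIs. Pcdh9 was spread over more cells than Nalf1 in IR, where the 45 highest cells carried 50% of its UMIs, against 19 cells for Nalf1.

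**Figure D1:**
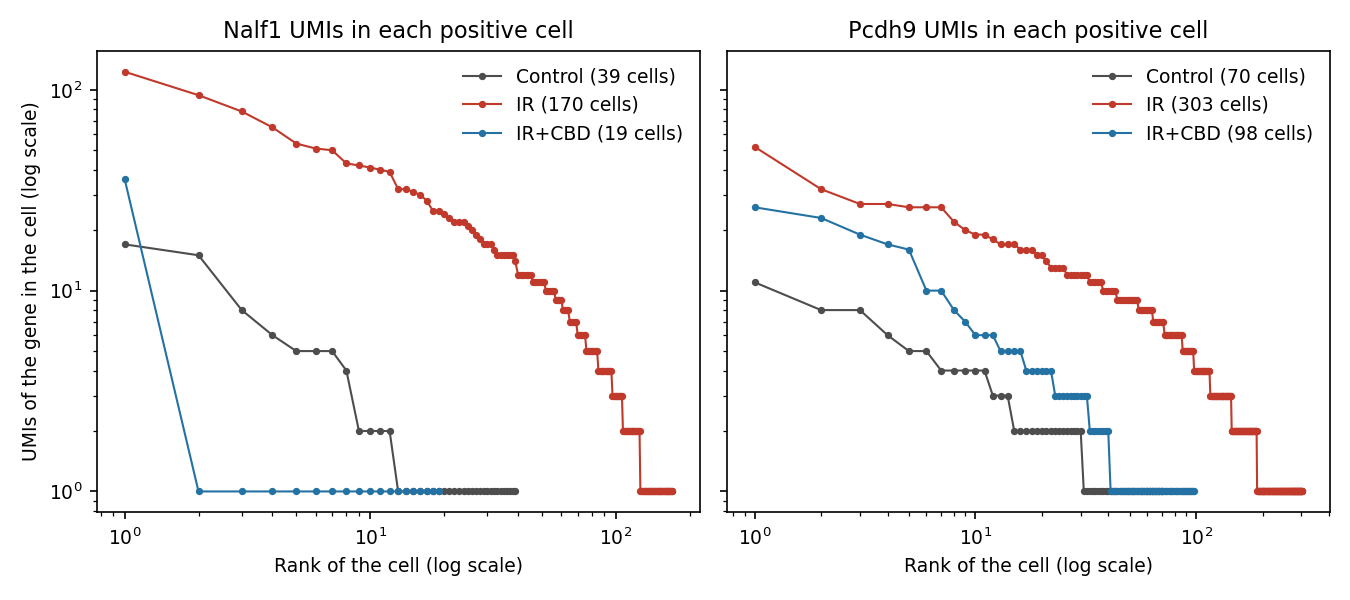
UMIs of each member in every positive kept cell, ranked from the highest cell, with both axes on a log scale and 1 line per library (Control, IR and IR+CBD). The IR line lies above the others at every rank above 1 UMI for both genes, with 96 cells at 4 or more UMIs for Nalf1 and 115 for Pcdh9.

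Nalf1 in IR was concentrated in the Mpo and the Cd34 with Adgrl4 gates. In the Mpo gate 17 of 3227 Control cells (0.527%), 124 of 2916 IR cells (4.25%, 3.55 to 5.05) and 11 of 3294 IR+CBD cells (0.334%) were positive. Their levels were 0.162, 16.1 and 0.130 CPM, and the IR share was 8.07 times the Control share (4.84 to 14.3). Cells in the Mpo gate alone were positive in 18 of 1060 IR cases (1.70%), with a ratio of 3.18, while 93 of 1493 cells (6.23%) that were also in the Cd34 with Adgrl4 gate and no other were positive. The difference in level was wider still, with an IR level 99.6 times that of Control (62.8 to 169), because no Control or IR+CBD cell of the gate held more than 2 UMIs while the highest IR cell held 94. In the Cd34 with Adgrl4 gate, which shares cells with the Mpo gate, 23 of 3116 Control cells (0.738%), 124 of 1952 IR cells (6.35%, 5.31 to 7.53) and 12 of 1970 IR+CBD cells (0.609%) were positive. Their levels were 0.8003, 24.6 and 0.845 CPM. In IR+CBD 36 of the 47 UMIs came from the predicted doublet, and without it the level was 0.198 CPM. The IR share there was 8.61 times that of Control (5.48 to 14.1), and the IR+CBD share was 0.0959 times that of IR (0.0482 to 0.174). Together the 2 gates took in 144 of the 170 positive IR cells (84.7%) and 96.5% of the Nalf1 UMIs. Of the 7183 IR cells in neither gate 26 were positive, with 63 UMIs.

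In IR the other gates held fewer Nalf1-positive cells. In the Cd79a gate 10 of 3524 Control cells (0.284%), 19 of 4072 IR cells (0.467%) and 3 of 3456 IR+CBD cells (0.0868%) were positive. The IR over Control ratio of shares there was 1.64 (0.727 to 3.96). Erythroid cells (Klf1) were positive in 0 of 586 Control cells, which allows a share of up to 0.512%, in 12 of 1446 IR cells and in 2 of 1181 IR+CBD cells. Mature neutrophils (Retnlg), which come after the Mpo stage, were positive in 3 of 1004 Control cells (0.299%), 5 of 1076 IR cells (0.465%) and 1 of 1215 IR+CBD cells (0.0823%), at median depths of 8770, 9708 and 8823 UMIs against 33196, 30684 and 24151 in the Mpo gate. Depth can set such shares, so cells were also thinned to 2000 UMIs, with shallower cells left out. After thinning, 54 of 2912 IR cells of the Mpo gate (1.85%) were still positive, against 0 of 3214 in Control and 0 of 3285 in IR+CBD. In the Siglech gate 3 of 46 IR cells were positive (6.52%, 1.37 to 17.9), against 0 of 273 in Control and 0 of 79 in IR+CBD, which allow up to 1.10% and 3.80%.

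Pcdh9 lay in another lineage. Of the cells that make the surrogate light chain (Igll1 gate), 40 of 910 in Control (4.40%, 3.16 to 5.94), 198 of 918 in IR (21.6%, 18.9 to 24.4) and 39 of 438 in IR+CBD (8.90%, 6.41 to 12.0) were positive. Their levels were 8.42, 89.2 and 28.3 CPM. The IR share was 4.91 times that of Control (3.48 to 7.08), and the IR+CBD share was 0.413 times that of IR (0.285 to 0.584) but still 2.03 times that of Control (1.27 to 3.23). In the wider B lineage (Cd79a gate) 53 of 3524 Control cells (1.504%), 265 of 4072 IR cells (6.51%) and 66 of 3456 IR+CBD cells (1.91%) were positive, and there the interval of the IR+CBD over Control ratio of shares included 1 (1.27, 0.871 to 1.86). Both B-lineage gates together took in 269 of the 303 positive IR cells (88.8%) and 94.1% of the Pcdh9 UMIs. B-lineage cells with Cd79a in no other gate were positive in 63 of 2889 IR cells (2.18%), against 179 of 817 (21.9%) in the Cd79a and Igll1 gates and no other.

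Outside the B lineage fewer cells held Pcdh9. Mature neutrophils were positive in 5 of 1004 Control cells (0.498%), 8 of 1076 IR cells (0.743%) and 3 of 1215 IR+CBD cells (0.247%), at median depths of 8770, 9708 and 8823 UMIs, near the 10402, 8517 and 11723 UMIs of the Igll1 gate. The Igll1 shares stood above these in every library. Of the 8 positive IR cells of the Retnlg gate, 4 were also in the Cd79a and Igll1 gates and no other. Those cells held 40 of the 51 UMIs. In the Mpo gate Pcdh9 was found in 17 of 3227 Control cells (0.527%), 33 of 2916 IR cells (1.13%) and 19 of 3294 cells after CBD (0.577%), a share 2.15 times as high in IR as in Control (1.16 to 4.11). In the Cd34 with Adgrl4 gate 11 of 3116 (0.353%), 28 of 1952 (1.43%) and 16 of 1970 cells (0.812%) were positive. The IR over Control ratio was 4.06 (1.96 to 9.04). In cells of the Mpo and Cd34 with Adgrl4 gates and no other, IR had 15 positive among 1493 (1.00%), each with 1 UMI. IR+CBD was alike there, at 14 among 1471 (0.952%), and Control lower, at 6 among 1923 (0.312%). In the Cd34 with Adgrl4 gate alone, IR had 0 positive among 211 and Control 1 among 863. Most of the remaining positive IR cells of the Cd34 with Adgrl4 gate were also in the Cd79a gate. A higher share in IR was thus not shown for cells in that progenitor gate alone. In the Klf1 gate of IR 12 of 1446 cells were positive, and 52 of their 91 UMIs came from 1 cell, which was also in the Cd79a and Igll1 gates. After thinning to 2000 UMIs, 18 of 907 Control cells of the Igll1 gate (1.98%), 135 of 908 IR cells (14.9%) and 21 of 435 IR+CBD cells (4.83%) were positive.

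**Figure D2:**
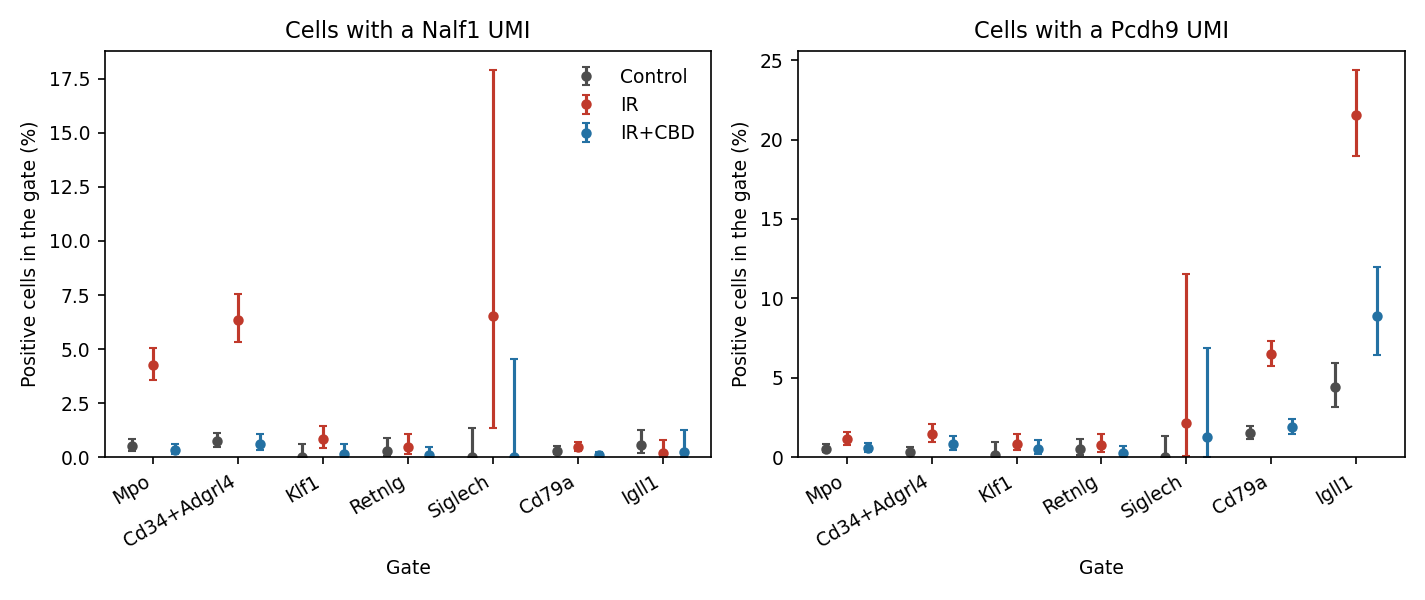
Percent of cells with a UMI of Nalf1 and of Pcdh9 in each gate and library, with bars from the exact 95% binomial interval (counting error only). Nalf1 stands highest in IR cells of the Mpo (4.25%) and Cd34 with Adgrl4 (6.35%) gates, apart from the 46 IR cells of the Siglech gate with their wide interval, and Pcdh9 in the Igll1 gate, at 4.40%, 21.6% and 8.90% in Control, IR and IR+CBD.

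Within the Mpo gate of IR, Nalf1 was found more often in cells that also held Cd34 or Flt3. Of the Mpo cells, 113 of 2180 with a Cd34 UMI (5.18%) and 11 of 736 without (1.49%) were positive. Cells with Flt3, the receptor of multipotent and lymphoid-primed progenitors, were positive in 63 of 725 cases (8.69%), against 61 of 2191 without (2.78%). By Mpo itself the share was 0.475% at 0 Mpo UMIs, 0.807% at 1 to 4, 5.61% at 5 to 19, 5.54% at 20 to 99 and 3.63% at 100 or more, so it was higher from 5 UMIs on and did not go on climbing above that. In Control no Mpo level exceeded 0.624%, and in IR+CBD none exceeded 0.353%.

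A like Flt3 difference was seen in the Cd34 with Adgrl4 gate of IR, where 78 of 755 cells with Flt3 (10.3%) and 46 of 1197 without (3.84%) were positive. Of the 1952 IR cells of this gate, 1867 (95.6%) had an Mpo UMI, and 1493 were also in the Mpo gate and no other. The Flt3 splits of the 2 gates thus share many cells and are not separate observations. Cells with Hlf, a transcription factor of stem cells, were positive in 6.47%, against 6.30% without. The Nalf1 level differed more, at 35.7 CPM with Hlf and 19.5 CPM without. Dntt marks entry into the lymphoid lineages, and 23 of 217 cells with it (10.6%) and 101 of 1735 without (5.82%) were positive, although the level was lower with Dntt (16.5 CPM) than without (25.6 CPM). Control differed in where its few Nalf1 UMIs lay, as 66 of the 76 UMIs of this gate were in cells with Dntt, which made up 28.5% of the gate there and 11.1% in IR. The 2 highest Control cells held 17 and 15 Nalf1 UMIs. Of the 8 Control cells with 4 or more Nalf1 UMIs, 8 had a Dntt UMI and 0 were in the Mpo gate, while of the 96 such IR cells 9 had a Dntt UMI and 83 were in the Mpo gate. Mki67, a gene of dividing cells, was found in 78 of those 96 cells, and 78.5% of all IR cells of the Cd34 with Adgrl4 gate had it too. Cd34 was found in 89 and Flt3 in 55, and 9 were marked as predicted doublets.

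Pcdh9 followed Dntt in the Igll1 gate. With a Dntt UMI, 35 of 688 Control cells (5.09%), 186 of 667 IR cells (27.9%) and 39 of 296 IR+CBD cells (13.2%) were positive, a ratio of 5.48 for IR over Control (3.80 to 8.11) and 0.472 for IR+CBD over IR (0.326 to 0.670). Without Dntt 5 of 222, 12 of 251 and 0 of 142 cells were positive. Arpp21, which encodes an RNA-binding phosphoprotein also found in neurons, split the gate in a like way in IR, with 155 of 515 cells positive with it (30.1%) and 43 of 403 without (10.7%). By Igll1 itself the IR share was 17.1% at 2 to 4 UMIs, 24.6% at 5 to 19 and 10.2% at 20 or more, so that it was highest at middle levels.

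Cells of the Igll1 gate without Mki67 carried Pcdh9 more often than those with it. Without Mki67, 21 of 292 Control cells (7.19%), 142 of 431 IR cells (32.9%) and 30 of 158 IR+CBD cells (18.99%) were positive, at median depths of 4325, 4353 and 4372.5 UMIs. With Mki67, 19 of 618 (3.07%), 56 of 487 (11.5%) and 9 of 280 (3.21%) were positive, at deeper medians of 14296, 17280 and 16685.5 UMIs. An absent Mki67 UMI in shallow cells does not show that they do not divide. Cells without Mki67 made up 32.1%, 46.9% and 36.1% of the gate, so that share also differed between libraries. In the cells without Mki67 the Pcdh9 share was 4.58 times as high in IR as in Control (2.89 to 7.63) and 0.576 times as high in IR+CBD as in IR (0.375 to 0.859).

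**Figure D3:**
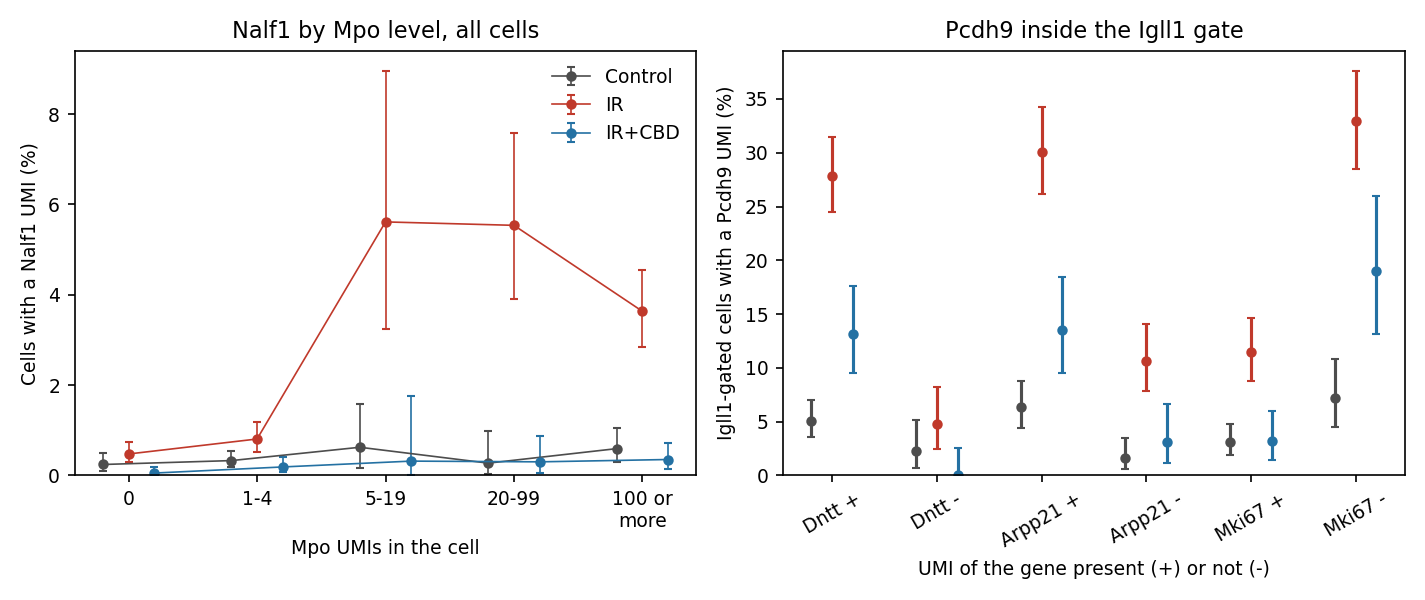
Left, percent of all kept cells with a Nalf1 UMI by the number of Mpo UMIs in the cell; right, percent of Igll1-gated cells with a Pcdh9 UMI among cells with (+) or without (-) a UMI of Dntt, Arpp21 or Mki67, for each library with exact 95% binomial intervals. In IR Nalf1 was found in 5.61% of cells at 5 to 19 Mpo UMIs and in 3.63% at 100 or more, and Pcdh9 in 27.9% of cells with Dntt and in 32.9% of cells without Mki67.

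Nalf1 and Pcdh9 were hardly ever found in the same cell. Cells positive for both numbered 1 of the Control, 2 of the IR and 0 of the IR+CBD cells. For IR the product of the 2 shares over all cells is 4.98 cells, and it is 2.42 when taken within 5 bins of depth and 1.98 when taken within combinations of gates, so the observed 2 lay near the number that separate gates and depths give. Both IR cells held only 1 Pcdh9 UMI. Over the 10345 IR cells, which share 1 library, the Pearson correlation of the 2 genes (log scale, UMIs per 10000) was -0.016.

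**Figure D4:**
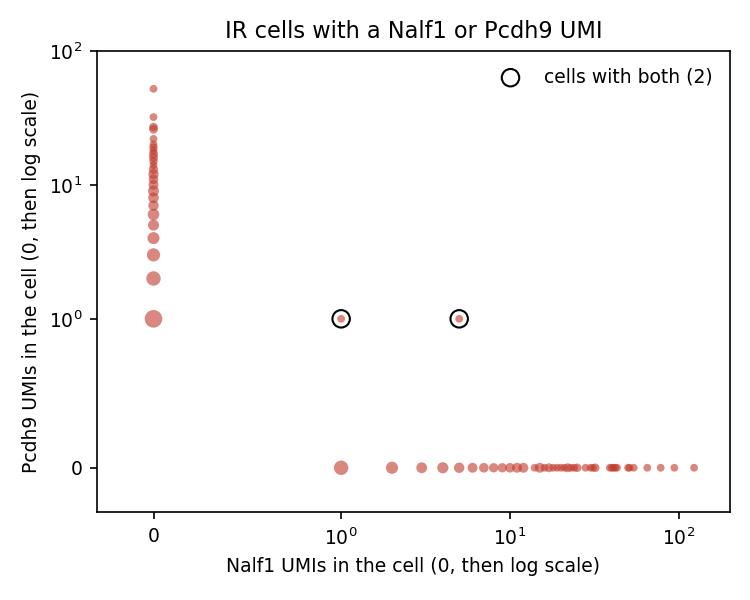
UMIs of Nalf1 against UMIs of Pcdh9 in the IR cells with a UMI of either gene (axes show 0 and then a log scale, and a larger point stands for more cells). Points lie along the 2 axes, apart from the 2 circled cells with a UMI of both.

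Whether 1 clone-like group of cells carries each member was examined through the cells most like the positive ones. In IR, 6.97% of the 20 nearest cells of a Nalf1-positive cell were positive themselves, against 1.64% of all cells. Inside the Mpo gate the figure was 6.94%, against 3.98% for the neighbours of negative cells. No Nalf1-positive cell had 50% or more positive neighbours, the highest share was 30%, and 56 of the 170 (32.9%) had none. Most cells nearest to a Nalf1-positive cell of IR thus held no Nalf1 UMI.

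Pcdh9-positive cells were packed more closely. In IR 22.8% of their nearest cells were positive, against 2.93% of all cells, and inside the Igll1 gate 31.9% were, against 14.7% for the neighbours of negative cells. 44 cells had 50% or more positive neighbours, with a highest share of 70%, and 71 of 303 (23.4%) had none. The same measure gave 5.43% in Control and 11.2% in IR+CBD, against 0.656% and 0.954% of all cells there. Relative to the share of all cells it was 8.28 times as high in Control, 7.79 times in IR and 11.8 times in IR+CBD.

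B cells of 1 clone share a rearranged immunoglobulin V segment, so the segments of the positive B-lineage cells were counted. Of the 269 Pcdh9-positive IR cells, 50 held a heavy-chain segment, and they held 31 different ones. The most frequent, Ighv14-2, was the leading segment in 8 cells (16%, 7.17 to 29.1), against 3.37% of Pcdh9-negative cells with a segment. Among the cells with 4 or more Pcdh9 UMIs, 18 held a segment, with 11 different ones and Ighv14-2 in 4. Light-chain kappa segments were found in 50 positive cells and were of 22 kinds, led by Igkv1-110 in 10 (20%, against 13.1% of negative cells). In Control 16 positive cells held 13 different heavy-chain segments, with Ighv14-2 in 3, and in IR+CBD 12 held 12. Light-chain lambda has 3 listed segments, and Iglv1 led in 11 of 14 positive IR cells (78.6%, against 67.0% of negative cells). Most positive cells held no segment of any family, so these counts cover a minority of the cells and do not settle whether they share a clone. A clone of myeloid cells has no such mark, so for Nalf1 a common clone was not tested.

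Nalf1 correlated most with Cd34 and Adgrl4, the genes of the gate with its highest level in IR. Over the 10345 IR cells, which share 1 library, the 10 highest values were with Cd34 (0.17), Adgrl4 (0.16), Slco3a1 and Bcl2 (both 0.15), Flt3, Rnf220, Slfn9, Cacnb2 and Macroh2a1 (each 0.13), and Hoxa7 (0.12), all of them weak. These cells differed in depth, with a median of 30534 UMIs in Nalf1-positive and 13873 in negative ones. Inside the Cd34 with Adgrl4 gate, Flt3 was 2.17 times as high in positive as in negative cells (1.92 to 2.44), and Dntt was 4.05 times as high but came from 23 positive cells. The uncharacterised RNA 2900027M19Rik, which lies inside Nalf1 on the same strand, had 91 UMIs in the 124 positive cells and 1 in the 1828 negative ones. It was counted 2 times in Control, 103 times in IR and 0 times in IR+CBD, and 41 of the 96 IR cells with 4 or more Nalf1 UMIs held it. The 10 annotated genes inside Nalf1 on its strand were counted 10, 266 and 5 times in that order of libraries, and whether their reads come from the Nalf1 transcript cannot be told apart.

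Among the 10 genes lowest in Nalf1-positive cells of this gate were several granule genes. Prg2, a protein of eosinophil granules, stood at 0.00706 times its level in negative cells, Prss34, a basophil and mast cell protease, at 0.0120, and the neutrophil granule genes Camp and Ngp at 0.0441 and 0.0833. Genes of the gate itself differed little, with Mpo at 0.867 times, Mki67 at 0.903 times and Hlf at 0.874 times. Positive and negative cells had like quality, at medians of 32711 and 32784 UMIs, 6184 and 6055 genes, and 1.13% and 1.17% mitochondrial UMIs.

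Pcdh9 correlated most with Arpp21 and the surrogate light chain genes. Over the 10345 IR cells the highest values were with Arpp21 and Vpreb2 (both 0.42), Vpreb1 and the unnamed gene Gm30948 (both 0.40), Igll1 (0.38), Dntt (0.34), D030045P18Rik (0.33), and Fcrl6, Erg and Gm525 (each 0.32). Vpreb1 and Vpreb2 encode the other part of the surrogate light chain, and Erg is a transcription factor of early progenitors. For the first of these, Arpp21, the values were 0.14 in Control and 0.23 in IR+CBD.

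Within the Igll1 gate of IR, Pcdh9-positive cells held more of genes that are rare there. Gria2, a glutamate receptor subunit, was 10.8 times as high as in negative cells with a UMI in 28 positive cells, Serpina3n, a secreted protease inhibitor, was 9.16 times as high in 30, and Mpzl2, an adhesion molecule, was 8.08 times as high in 30. The uncharacterised Gm6093 was 15.6 times as high. The largest ratios, those of Jchain, Igha and Igkc, rested on 1 cell with 88.3% or more of the UMIs. Dntt was 1.41 times as high and Flt3 0.385 times. Positive cells were shallower, with a median of 5004.5 UMIs against 10375.5, fewer of them had Mki67 (28.3% against 59.9%), and ribosomal protein genes took 16.4% of their UMIs against 20.3%. The part of depth and of cell division in these ratios was not tested.

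Among 12468 genes with 1000 or more UMIs over all kept cells, 22 (0.176%) were 4-fold or more higher in IR than in Control, 17 (0.136%) were as far lower, 15 (0.12%) were 4-fold or more lower in IR+CBD than in IR, 2 (0.016%) were as far higher, and 11 (0.0882%) met both in the sense of standing 4-fold above both libraries. Nalf1 and Pcdh9 were among the 11, as the choice of members required. Ranked by the smaller of the 2 log2 differences, Nalf1 was in place 2 with 4.13 and Pcdh9 in place 9 with 2.03. Place 1 was Ighg1, an antibody heavy chain, of whose 4393 IR UMIs 1 cell held 91.9%. Between the members stood Ifi27l2a, Rtp4, Ifi213, Iigp1, Oas2 and Ifit1, all of them interferon-induced genes, and Oasl2, another, followed Pcdh9. Those genes were spread over many cells, with a UMI of Ifi27l2a in 65.9% of IR cells, Rtp4 in 36.7% and Oasl2 in 24.8%, whereas Nalf1 was found in 1.64% and Pcdh9 in 2.93%.

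**Figure D5:**
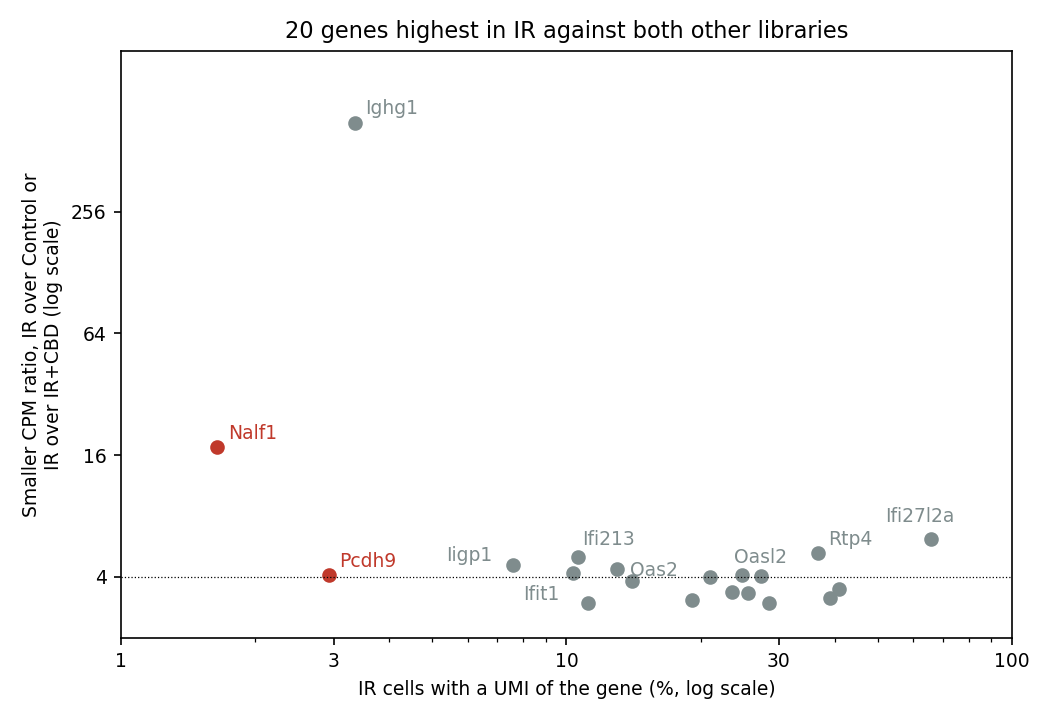
Fold of each of the 20 genes that stand most above both other libraries in IR (log axis, smaller of IR over Control and IR over IR+CBD) against the percent of IR cells with a UMI (log axis). Nalf1 and Pcdh9 lie at 1.64% and 2.93% of cells, while the interferon-induced Ifi27l2a lies at 65.9%.

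Most genes of the NALCN complex were scarce. NALCN, the channel that Nalf1 serves, was counted 9, 11 and 6 times in Control, IR and IR+CBD, Unc79 42, 73 and 41 times, Unc80 17, 12 and 10 times and Nalf2 7, 0 and 0 times, so that 1 of the 5 genes of that complex, Nalf1 itself, had enough UMIs to be compared. Of the 9 delta-protocadherins 2 were compared. Pcdh7 was counted 3376, 4068 and 3492 times, 1.16 times as high in IR as in Control and 1.00 times as high in IR+CBD as in IR, and Pcdh9 was the only one of both past 4-fold. Below the minimum, Pcdh11x had the pattern of Pcdh9, with 27, 246 and 33 UMIs and an IR level 8.77 times that of Control (5.88 to 13.6). It was found in 88 IR cells, of which 59 were in the Igll1 gate and 22 also held Pcdh9, against 2 that also held Nalf1. The Igll1 gate also held 198 of the 303 Pcdh9-positive IR cells, and the overlap that a shared gate alone gives was not computed. The highest cell held 37 of the 246 UMIs. Pcdh17 went the other way, with 114, 50 and 50 UMIs.

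Of the 10 WAVE complex genes 8 were compared. Of the 8, 0 were past 4-fold, near the share over all 12468 genes (0.176% higher and 0.136% lower in IR than in Control). Nckap1 was the 1 that was higher in IR than in Control, with 1270, 2625 and 2018 UMIs in Control, IR and IR+CBD and a ratio of 1.99 (1.86 to 2.13), and 7 were lower, between 0.703 (Abi2) and 0.978 times (Abi1), with a median log2 difference of -0.23 against -0.04 over all genes compared. Between IR+CBD and IR 5 were higher and 3 lower. Of 34 long genes best known from neurons, which like the members span long stretches of genome, 10 were compared. Of the 10, 0 were past 4-fold, again near the share over all genes. In IR 2 were higher and 8 lower than in Control, with a median log2 difference of -0.30 against -0.04 over all genes compared.

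Most of the nearest protein-coding genes with UMIs around the members stood at like levels in IR and Control. Within 545 kb of Nalf1, Arglu1 was counted 35704, 34402 and 29476 times, 0.928 times as high in IR as in Control, and Lig4, a DNA ligase, and Abhd13 stood at 1.07 and 0.976 times. Efnb2, a ligand of Eph receptors, stood at 0.724 times on 173, 130 and 96 UMIs. The genes around Pcdh9 lay farther off. Diaph3 and Tdrd3, 5872 and 5468 kb away, stood at 0.993 and 1.01 times, and Dach1, 3896 kb away, at 0.809 times. Pcdh20 and Spertl were counted 0 times in each library. Klhl1, at 2212 kb the nearest to Pcdh9 with UMIs, was the exception, with 28, 74 and 53 UMIs. Its IR over Control ratio was 2.54 (1.63 to 4.08), and 24 of its 74 IR UMIs came from 1 cell.

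Stroma markers were higher in Pcdh9-positive cells than over all cells of every library, and neuron markers rested on few UMIs. The 8 neuron markers together stood at 2.90 CPM over all IR cells and at 0.926 CPM in the Nalf1-positive ones, in which 6 of the 8 were at 0. In the Pcdh9-positive IR cells they stood higher, at 3.96 CPM from 13 UMIs with 5 at 0, and in those of IR+CBD at 13.9 CPM from 20 UMIs with 5 at 0, against 2.75 CPM over all IR+CBD cells. The 5 stroma markers stood at 4.11 CPM over all IR cells, 8.89 CPM in the Nalf1-positive ones (48 UMIs) and 23.8 CPM in the Pcdh9-positive ones (78 UMIs). In Control, stroma markers stood at 118 CPM (143 UMIs) in the 70 Pcdh9-positive cells against 9.23 CPM over all cells, led by Cxcl12. In IR+CBD they stood at 25.0 CPM (36 UMIs) against 5.68 CPM. How many of the positive cells held these stroma UMIs was not counted, so few cells may set the values. The 5 endothelium markers, led by Pecam1, which blood cells also express, stood at 81.2 CPM over all IR cells and at 128 and 135 CPM in the Nalf1-positive and Pcdh9-positive ones, and the 6 glia markers, mostly Mbp, at 45.4 CPM and at 44.1 and 47.8 CPM. The part of other cells' RNA in the values of the members was not tested.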

How the data were processed

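The authors aligned droplet reads with Cell Ranger (4.0 in the submitters' processing notes, 7.0.1 in the deposited file headers) against GRCm39, with an annotation release not given in the sources used here, and deposited raw UMI counts per gene and barcode, which were used unchanged. Cells with 200 or more genes and at most 5% mt- UMIs were kept, predicted doublets included. Scrublet (scanpy 1.11.5), used only as an alternative, marked 911 Control, 856 IR and 844 IR+CBD cells, whereas the study removed doublets with DoubletFinder. CPM is UMIs per 1000000 UMIs of the kept cells. Intervals are exact 95% intervals: Poisson for CPM, Clopper-Pearson for shares and conditional binomial for ratios. They cover counting error only, and a count of 0 was given a limit of 3 counts. No test between groups was possible with 1 library per group.

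Nearest cells were found in 20 principal components of 2000 variable genes (members left out, scikit-learn 1.9.0). Gene spans and neighbours came from GENCODE M21 (GRCm38) and the promoter from RefSeq, while counts were matched by symbol. Genes were named by rule: the members, gate genes, listed genes and neighbours, the 10 most correlated genes, the 10 highest and 10 lowest ratios of positive over negative cells, and the 10 genes most above both libraries in IR; of these the text names those with a clear description or many cells. The members, gates and lists were chosen with earlier results of these data known, and the splits of gates by stage genes, the class of 4 or more UMIs, Pcdh11x by gate and the share without the highest cell were chosen after seeing the values. Alternatives included thinning to 2000 UMIs, positivity from 2 UMIs, removal of doublets, other cell filters and cells in exactly 1 gate. Scripts (Python 3.11.15, numpy 2.4.6, scipy 1.17.1, pandas 2.3.3, matplotlib 3.10.9) were tested on simulated data.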

Additional observations from a re-analysis of the deposited data

Results flagged for a closer look

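Barcodes that the cell filter removed also held the members in IR. Nalf1 stood at 3.938 CPM there (2.33 to 6.22), from 18 UMIs in 10 of 1606 barcodes, against 0.220 CPM in the removed barcodes of Control and 0.230 CPM in those of IR+CBD. Pcdh9 stood at 22.32 CPM (18.2 to 27.1), from 102 UMIs in 30 barcodes, against 2.64 and 6.45 CPM. The IR value lay above both others for each member, as it did in the kept cells.

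The IR over Control ratio of Nalf1 shares lay below 1 in the Igll1 gate, on few cells, and above 1 in the Mpo gate. In the Igll1 gate the share of positive cells in IR was 0.3965 times that in Control (0.0378 to 2.42, from 2 of 918 and 5 of 910 cells), while in the Mpo gate it was 8.07 times as high. The CPM ratio in the Igll1 gate was 0.912 (0.380 to 2.17), from 12 IR and 13 Control UMIs. Both intervals in the Igll1 gate include 1, so no lower level is shown there, and the difference between the gates was not tested.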

How the results depend on the processing

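Replicate error was not examined, with 1 library a group, and depth limits the low shares. No paired analysis was possible because each group is 1 library. Of 116 recomputed values 79 stayed within the limits of the counting error (counts of genes within 1.5 times), 36 moved and 1 reversed; where a value moved, the cause was not tested.

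Thinning to 2000 UMIs widened the share ratios of IR over Control, to 10.7 for Nalf1 and 6.97 for Pcdh9 over all cells, 21.6 for Nalf1 in Cd34 with Adgrl4 cells, and 6.57 and 7.49 for Pcdh9 in the Cd79a and Igll1 gates. It lowered those of IR+CBD over IR to 0.0487 for Nalf1 and 0.245 for Pcdh9 over all cells and to 0.0183 for Nalf1 in Cd34 with Adgrl4 cells. With positivity from 2 UMIs the IR over Control ratios were 10.8 for Nalf1 and 6.47 for Pcdh9 over all cells, 18.3 for Nalf1 in Cd34 with Adgrl4 cells and 112 in Mpo cells, and those of IR+CBD over IR were 0.00806 for Nalf1 and 0.214 for Pcdh9 over all cells and 0.00962 for Nalf1 in Cd34 with Adgrl4 cells. The Nalf1 ratios in Mpo cells that would need a count in a library at 0 were not computed.

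The CPM ratio of IR+CBD over IR for Nalf1 was 0.00955 without Scrublet doublets, 0.0214 with combinations of gates weighted by their Control shares and 0.0124 without the highest cell of each library. For Pcdh9 it was 0.278 without doublets and 0.344 with that weighting, under which Nalf1 IR over Control was 27.2. In cells of exactly 1 gate, the Nalf1 share ratios were 3.18 for IR over Control in Mpo cells and 0.0423 for IR+CBD over IR in Cd34 with Adgrl4 cells, and the Pcdh9 ratio of IR+CBD over IR in Cd79a cells was 0.418. The Igll1 gate has few cells of that kind (17 in Control, 13 in IR, 4 in IR+CBD), where the Pcdh9 ratios were 1.96 for IR over Control and 1.08 for IR+CBD over IR, the value that reversed.

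A minimum of 200 UMIs in place of 1000 brought the genes 4-fold or more higher in IR than in Control to 42, lower to 61, above both libraries to 17 and higher in IR+CBD than in IR to 5, and the delta-protocadherins past 4-fold to 2 for IR over Control and 2 for IR+CBD over IR, the added gene being Pcdh11x. A limit of 2-fold in place of 4-fold gave 173, 180 and 39 genes for IR, and 11 higher and 54 lower in IR+CBD than in IR.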
